A study of Homo sapiens with 6 samples.

Results

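The IFIT and IFITM families are interferon-induced antiviral genes, and 7 of them are described here in SACC-83 cells that overexpress circMYBL1 and in SACC-83 vector control cells. The members IFIT1, IFIT2, IFIT3, IFIT5, IFITM1, IFITM2 and IFITM3 were taken by symbol from a table of 27328 loci. Each symbol was found once, and 7 of 7 passed the filter on low values (a minimum of 1 FPKM in 3 or more of the 6 libraries), which left 12064 genes to test. SACC-83 is a human tumor cell line derived from adenoid cystic carcinoma of the salivary gland. The 3 libraries titled OE came from cells with the circular RNA overexpressed, and the 3 titled Vec came from vector control cells, whose genotype label reads WT. The genotype labels of OE 1, 2 and 3 name circMYBL1, circMYBL2 and circMYBL3, while the design text names circMYBL1 only, so treating the 3 as replicates rests on the titles. The sources used here do not give the construct, its promoter or the time of harvest, nor whether the cells were a pool or 1 clone. They also do not say that the libraries of a group came from separate cultures. The p-values set the group difference against the variation that a fit leaves between these libraries, and that variation may be technical only.

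IFIT proteins are cytoplasmic and built of tetratricopeptide repeats. IFIT1 binds capped RNA that lacks methylation on the first nucleotide and blocks its translation, IFIT3 and IFIT2 assemble with IFIT1, and IFIT5 binds RNA with a 5′ triphosphate. IFITM proteins are small membrane proteins that hinder the fusion of viral and cellular membranes, IFITM1 mainly at the cell surface and IFITM2 and IFITM3 in endosomes and lysosomes. Both families are switched on by interferon through STAT2 and IRF9, which act at the interferon-stimulated response element (ISRE) of a promoter, and many tumor cells express them without added interferon.

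On GRCh38 (GENCODE release 29) the 4 IFIT genes form a cluster on chromosome 10 and the 3 IFITM genes a cluster on chromosome 11. On the plus strand of chromosome 10 lie IFIT2 (ENSG00000119922, 89283694 to 89309276), IFIT3 (ENSG00000119917, 89327894 to 89340971), IFIT1 (ENSG00000185745, 89392546 to 89406486) and IFIT5 (ENSG00000152778, 89414586 to 89421001). IFIT1, IFIT2 and IFIT3 lie within the span of LIPA, a lysosomal lipase gene on the opposite strand, and IFIT5 overlaps no annotated gene. On chromosome 11, IFITM2 (ENSG00000185201, 307631 to 315272) and IFITM1 (ENSG00000185885, 313506 to 315272) lie on the plus strand, with IFITM1 inside the annotated span of IFITM2, and IFITM3 (ENSG00000142089, 319669 to 327537) lies on the minus strand. The families also differ in base composition, since the longest transcripts of the IFIT genes are 37.4% to 44.3% G or C and those of the IFITM genes 52.5% to 56.9%.

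RefSeq promoter windows (GRCh38.p14, -250 to 50 bases from a RefSeq start site) were at hand for 5 of the 7 members, IFIT1, IFIT3, IFIT5, IFITM1 and IFITM3, with 2 windows for IFIT3. RefSeq start sites differ from the ends of the GENCODE spans given above, and the windows of IFITM1 and IFITM3 and the second window of IFIT3 lie inside those spans. The windows of 4 members are printed because they carry the response element that the families share and because these genes span the range of differences seen below. They run 5′ to 3′ on the strand of the gene, with matches to the ISRE core in capitals. The core was searched on both strands as GAAA, any 2 bases and GAAA again, so where it lies on the opposite strand it reads TTTC, any 2 bases and TTTC. IFITM1 is at chr11:313790-314089 on the plus strand, IFITM3 at chr11:320811-321110 on the minus strand, IFIT1 at chr10:89392373-89392672 on the plus strand and IFIT5 at chr10:89414318-89414617 on the plus strand.
IFITM1: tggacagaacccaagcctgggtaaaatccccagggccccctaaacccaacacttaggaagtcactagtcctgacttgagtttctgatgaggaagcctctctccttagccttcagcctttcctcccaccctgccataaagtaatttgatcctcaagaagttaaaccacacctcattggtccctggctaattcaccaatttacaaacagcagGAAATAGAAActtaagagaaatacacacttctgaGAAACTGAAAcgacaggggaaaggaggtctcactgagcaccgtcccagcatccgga
IFITM3: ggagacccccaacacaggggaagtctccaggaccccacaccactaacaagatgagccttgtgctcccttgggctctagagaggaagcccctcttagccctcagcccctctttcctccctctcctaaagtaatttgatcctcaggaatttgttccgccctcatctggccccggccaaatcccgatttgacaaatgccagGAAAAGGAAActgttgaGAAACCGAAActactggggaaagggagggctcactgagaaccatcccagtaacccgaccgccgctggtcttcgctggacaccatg
IFIT1: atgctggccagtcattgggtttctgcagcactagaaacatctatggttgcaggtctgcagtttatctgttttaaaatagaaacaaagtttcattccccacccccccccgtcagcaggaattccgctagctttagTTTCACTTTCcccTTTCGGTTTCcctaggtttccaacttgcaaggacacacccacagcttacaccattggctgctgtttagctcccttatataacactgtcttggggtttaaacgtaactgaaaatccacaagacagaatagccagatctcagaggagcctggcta
IFIT5: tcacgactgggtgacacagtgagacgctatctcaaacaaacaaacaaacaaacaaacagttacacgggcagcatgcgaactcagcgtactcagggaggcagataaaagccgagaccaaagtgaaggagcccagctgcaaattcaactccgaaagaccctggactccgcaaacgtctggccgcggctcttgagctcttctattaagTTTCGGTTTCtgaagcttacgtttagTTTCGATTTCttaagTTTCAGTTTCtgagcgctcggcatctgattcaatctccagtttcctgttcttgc

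Each of the 6 windows of these 5 members held at least 2 core matches, and the IFIT5 window held 3. Of all 35116 promoter windows in the table, 3.57% held at least 1 match and 0.259% held 2 or more. In the IFIT windows the core lay on the strand opposite to the gene, and in the IFITM1 and IFITM3 windows on the strand of the gene. In IFIT1 the pair of matches lay at -116 to -107 and -103 to -94 from the start, and in IFITM3 at -52 to -43 and -35 to -26. In IFITM1 they lay at -40 to -31 and -6 to 4, beside a match to the core of the interferon-gamma activated site (TTCNNNGAA, a palindrome that both strands share) at -12 to -4, which overlaps the second ISRE match. That second core was in 7.66% of all windows and in no other window of the members. These matches describe the letters of the reference, and binding was not measured.

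**Figure D1:**
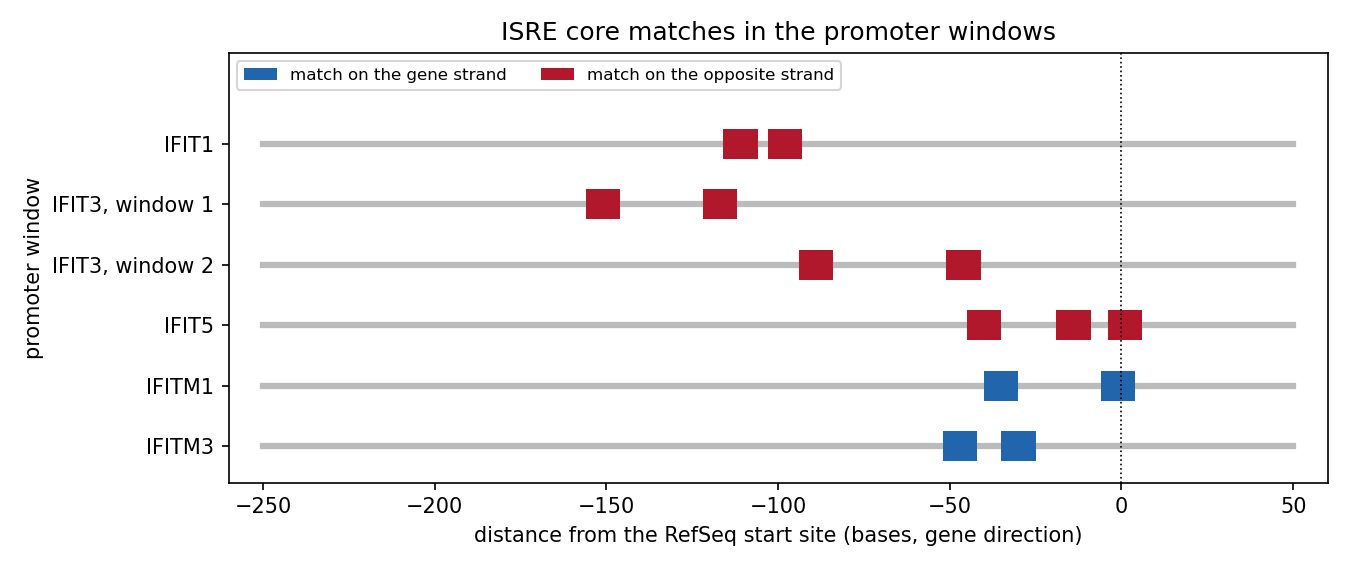
Positions of ISRE core matches (colored boxes, 10 bases each) in the 6 RefSeq promoter windows (grey bars, -250 to 50 bases from the RefSeq start site, dotted line), with distance in bases on the x axis and the gene on the y axis. Matches lie on the opposite strand (red) in the IFIT windows and on the gene strand (blue) in the IFITM windows, and every window holds at least 2.

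Levels are the FPKM deposited by the authors (fragments per kilobase of gene, scaled to the mapped fragments of a library), and fold changes are differences of log2(FPKM + 1), overexpression over vector, a scale that understates the change of a gene with a low value. The FPKM of a library summed to between 371776 and 408826. Read depth is unknown from such values, so no counting error can be given. The host gene of the circle, MYBL1, read 359, 44.0 and 2025 FPKM in overexpression libraries 1, 2 and 3, against 9.04, 7.15 and 10.3 FPKM in vector libraries 1, 2 and 3. This gene-level value does not measure the circle itself, and the overexpression libraries differ widely in it. Of 6 epithelial markers 6 reached 1 FPKM, while of 6 salivary acinar markers none did, with AQP5, AMY1A and STATH at 0 in every library. Of 4 adenoid cystic lineage markers MYB and NFIB reached 1 FPKM, while KIT was at 0 in every library and SOX10 stayed under 1 FPKM. Of 6 myoepithelial or basal markers 4 reached 1 FPKM (ACTA2, KRT14, KRT5 and TP63), and CNN1 and MYH11 did not. Of 5 fibroblast markers COL1A1 alone and of 5 endothelial markers PECAM1 alone reached 1 FPKM. Of 6 leukocyte markers CD68 alone did, with PTPRC, CD3E and LYZ at 0 in every library (summed level 6.91 to 11.4 FPKM in overexpression and 7.51 to 8.30 FPKM in vector libraries). In bulk libraries fewer cells that express a gene and less RNA per cell cannot be told apart.

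In the overexpression libraries the 7 members had mean log2 levels higher by 0.04 to 0.88, with IFITM1 and IFIT5 higher by the most, and none passed the test. In the group-only fit of limma 0 of 7 had an adjusted p under 0.05, where 0% of all 12064 genes did, and 0 of 7 had an unadjusted p under 0.05, where 0.539% of all genes did and 0.406% in the higher direction. Libraries that carry the same number in both groups moved together, so the number was also fitted as a block. With it 0 of 7 passed the adjustment, where 0.0995% of all genes did, and 3 of 7 (IFITM1, IFIT5 and IFITM3) had an unadjusted p under 0.05 in the higher direction, where 4.81% of all genes did (7.19% in either direction). For IFITM3 the unadjusted p of the blocked fit was 0.121 on GC- and length-corrected values and 0.130 without the filter (limma). IFITM1 and IFITM3 correlated over the 6 libraries (Pearson's r of log2 levels 0.965), so the 3 are not separate results. The median log2 fold change of the members was 0.11, beside 0.03 over all genes tested. All 7 had a higher mean log2 level, as were 58.1% of all genes, and 4 of 7 (IFIT3, IFIT5, IFITM1 and IFITM3) were higher in 3 of 3 same-numbered pairs, as were 16.5% of all genes. The ranges of the groups were separate for IFIT5 alone, with overexpression higher, which held for 2.5% of all genes, beside 0.845% with overexpression lower.

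**Figure D2:**
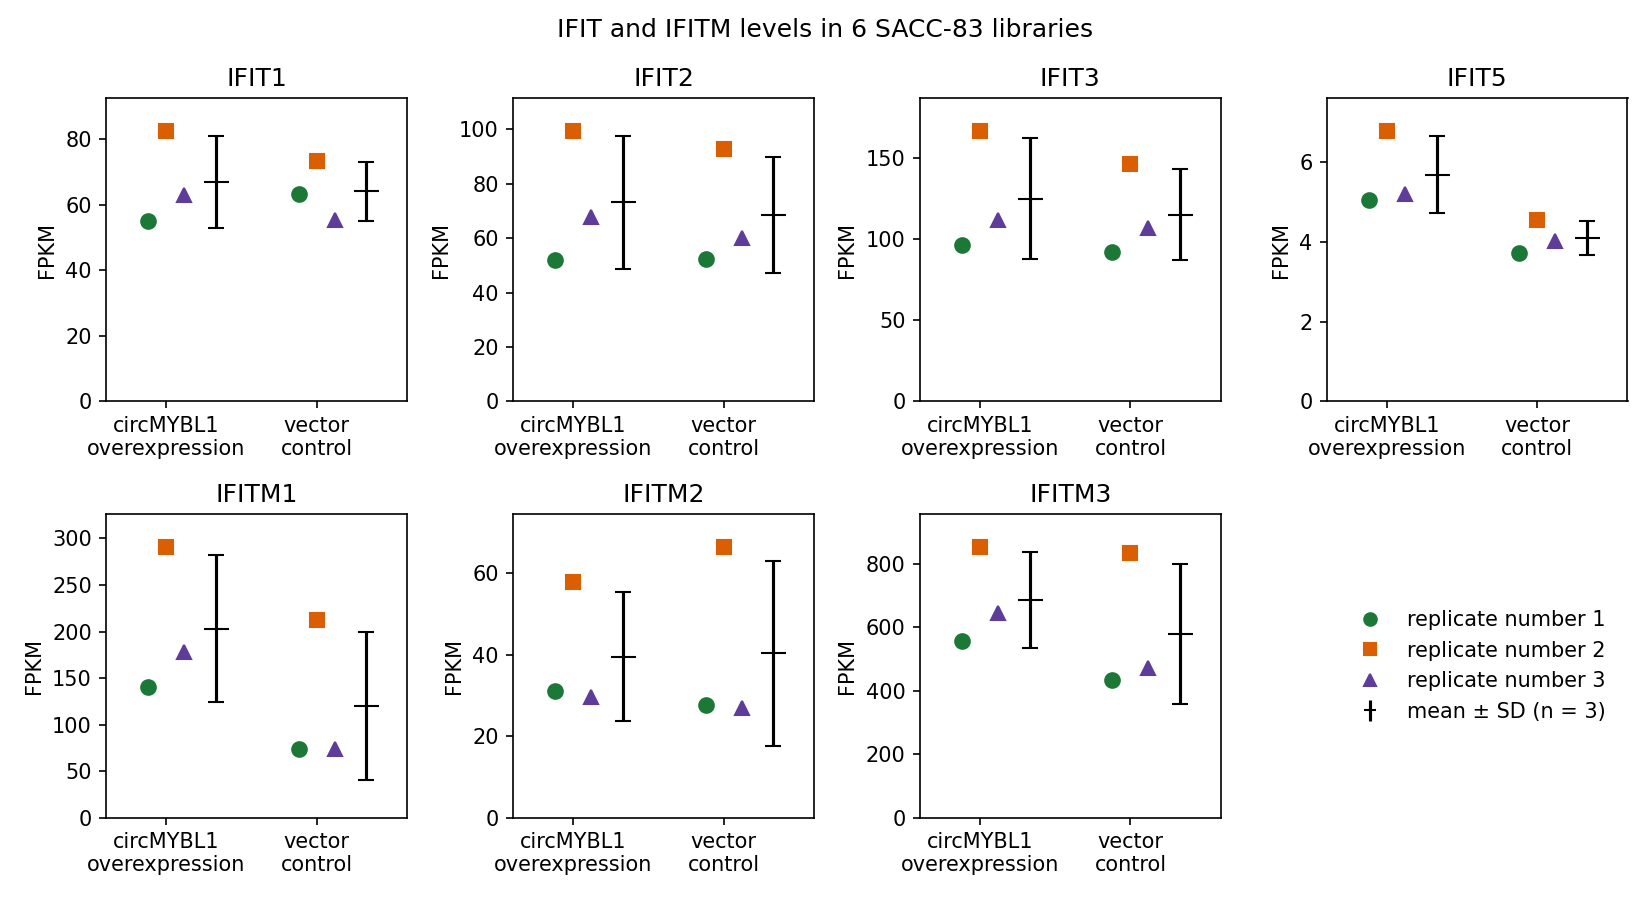
FPKM of each member (y axis, linear from 0) in the 3 circMYBL1 overexpression libraries (left) and the 3 vector control libraries (right), with symbols by replicate number and the mean ± SD of each group in black. The libraries numbered 2 stand highest within each group for all 7 members, and the groups are apart for IFIT5 only.

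IFITM1, the member found mainly at the cell surface, had the largest log2 fold change of the 7, while in FPKM the means differed by more for IFITM3 (107) than for IFITM1 (83.2). It read 140.05, 291 and 179 FPKM in overexpression libraries 1, 2 and 3, against 73.9, 212 and 73.9 FPKM in vector libraries 1, 2 and 3. Each overexpression library was above its same-numbered vector library, but vector library 2 was above overexpression libraries 1 and 3, so the groups overlap. The mean was 203 ± 78.5 FPKM in overexpression and 120.0 ± 79.8 FPKM in vector libraries (SD, n = 3 each). The ratio within a pair was 1.90, 1.37 and 2.41 for numbers 1, 2 and 3. The log2 fold change was 0.88 (limma, group only, SE 0.46, 95% interval -0.22 to 1.97, adjusted p = 1.0). With the replicate block the SE was 0.14 and the interval 0.57 to 1.18, and the adjusted p of 0.0731 (limma) missed the threshold. That SE also leans on variance pooled over genes. The log2 differences of pairs 1, 2 and 3 were 0.91, 0.45 and 1.26, a wider range than the interval. On values corrected for GC content and transcript length the blocked value was 0.80, with an adjusted p of 0.330 (limma). Without the filter on low values the blocked fit gave an SE of 0.20 and an adjusted p of 0.831 (limma). Without replicate 2 of both groups the blocked value was 1.09 with an adjusted p of 1.27e-12 (limma). That p is unreliable, since each gene then has 1 residual degree of freedom and the test leans on variance pooled over genes. The blocked fits without replicate 1 or 3 of both groups have as few, and their adjusted p was 0.109 and 0.0867 (limma). Without vector replicate 2 the group-only value was 1.38, and without overexpression replicate 2 it was 0.58.

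IFITM3, the endosomal member that restricts influenza viruses, was the most abundant of the 7. It read 558, 854 and 645 FPKM in overexpression libraries 1, 2 and 3, against 433, 833 and 473 FPKM in vector libraries 1, 2 and 3. All 3 pairs were higher in overexpression, by 1.29, 1.03 and 1.37 times, and the pair numbered 2 was nearly level. The mean was 686 ± 152 FPKM in overexpression and 579.5 ± 221 FPKM in vector libraries (SD, n = 3 each). The log2 fold change was 0.28 (limma, group only, SE 0.29, 95% interval -0.41 to 0.97, adjusted p = 1.0; adjusted p = 0.601 with the replicate block). On values corrected for GC content and transcript length it was 0.18. Genes are not independent replicates, but across 11166 of them the log2 ratio of pair 1 followed GC content (Spearman 0.533), and those of pairs 2 and 3 less so (0.117 and -0.0908). The part of base composition in the difference of IFITM3 was not tested further.

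IFITM2, the endosomal relative of IFITM3, showed no difference that these libraries could resolve. Its levels were 31.2, 57.8 and 29.7 FPKM in overexpression libraries 1, 2 and 3, against 27.7, 66.6 and 26.9 FPKM in vector libraries 1, 2 and 3. It was higher in overexpression in pairs 1 and 3 and lower in pair 2. The mean was 39.6 ± 15.8 FPKM in overexpression and 40.4 ± 22.7 FPKM in vector libraries (SD, n = 3 each). On the log2 scale the difference was 0.04 (limma, group only, 95% interval -0.93 to 1.004, adjusted p = 1.0), and its sign turned under quantile scaling (-0.024) and after GC and length correction (-0.065).

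The 3 IFITM values are not fully separate measurements, because the genes share sequence and no source used here says how the authors assigned such reads. Of the 50-base windows of the longest IFITM1 transcript, 42.3% occur in a transcript of another annotated gene, most of them in IFITM2 (39% of all its windows), since an annotated IFITM2 transcript runs on into IFITM1. For IFITM2 the share was 15.8% and for IFITM3 20.3%. For the IFIT genes it was lower, at 1.03% for IFIT1, 8.87% for IFIT2, 3.84% for IFIT3 and 0 for IFIT5. The values of IFITM1, IFITM2 and IFITM3 are therefore uncertain, and those of IFIT1 and IFIT5 are the least exposed to shared sequence.

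IFIT5, the member that binds triphosphate RNA, was low and separated the groups. It read 5.05, 6.79 and 5.20 FPKM in overexpression libraries 1, 2 and 3, against 3.72, 4.54 and 4.02 FPKM in vector libraries 1, 2 and 3. Every overexpression library was above every vector library. The mean was 5.68 ± 0.964 FPKM in overexpression and 4.09 ± 0.419 FPKM in vector libraries (SD, n = 3 each), and the pair ratios were 1.36, 1.49 and 1.29. The log2 fold change was 0.39 (limma, group only, SE 0.16, 95% interval -0.0050 to 0.78, unadjusted p = 0.0523, adjusted p = 1.0), and with the replicate block the SE was 0.11 and the adjusted p 0.447. Between the settings and with any 1 library left out it stayed between 0.27 and 0.46.

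IFIT3, which stabilizes IFIT1 and tunes its RNA binding, was the most abundant IFIT gene. It read 96.5, 167 and 111 FPKM in overexpression libraries 1, 2 and 3, against 92.2, 146 and 107 FPKM in vector libraries 1, 2 and 3. The groups overlap, and each pair was higher in overexpression by a small margin, with ratios of 1.05, 1.14 and 1.04. The log2 fold change was 0.11 (limma, group only, SE 0.26, 95% interval -0.51 to 0.72, adjusted p = 1.0).

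IFIT2, a partner of IFIT1 and IFIT3 that is also tied to apoptosis, and IFIT1, the cap-binding member, were close to level between the groups. IFIT2 read 51.8, 99.5 and 67.9 FPKM in overexpression libraries 1, 2 and 3, against 52.3, 92.7 and 60.2 FPKM in vector libraries 1, 2 and 3. IFIT1 read 55.1, 82.6 and 62.9 FPKM in overexpression libraries 1, 2 and 3, against 63.4, 73.4 and 55.3 FPKM in vector libraries 1, 2 and 3. Both were lower in overexpression in pair 1 and higher in pairs 2 and 3. Their log2 fold changes were 0.09 for IFIT2 (95% interval -0.62 to 0.79) and 0.05 for IFIT1 (-0.41 to 0.51), both with an adjusted p of 1.0 by limma in the group-only fit. With the replicate block the interval was -0.11 to 0.29 for IFIT2 and -0.18 to 0.28 for IFIT1. The blocked intervals rest on a pairing taken from these data, and the group-only intervals are wider, so neither gene is shown to be unchanged. Whether reads of LIPA, which overlaps IFIT1, IFIT2 and IFIT3 on the other strand, enter these values depends on strand use, which is not stated. LIPA itself read 21.9, 26.3 and 21.3 FPKM in overexpression libraries 1, 2 and 3, against 21.9, 26.0 and 23.1 FPKM in vector libraries 1, 2 and 3.

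**Figure D3:**
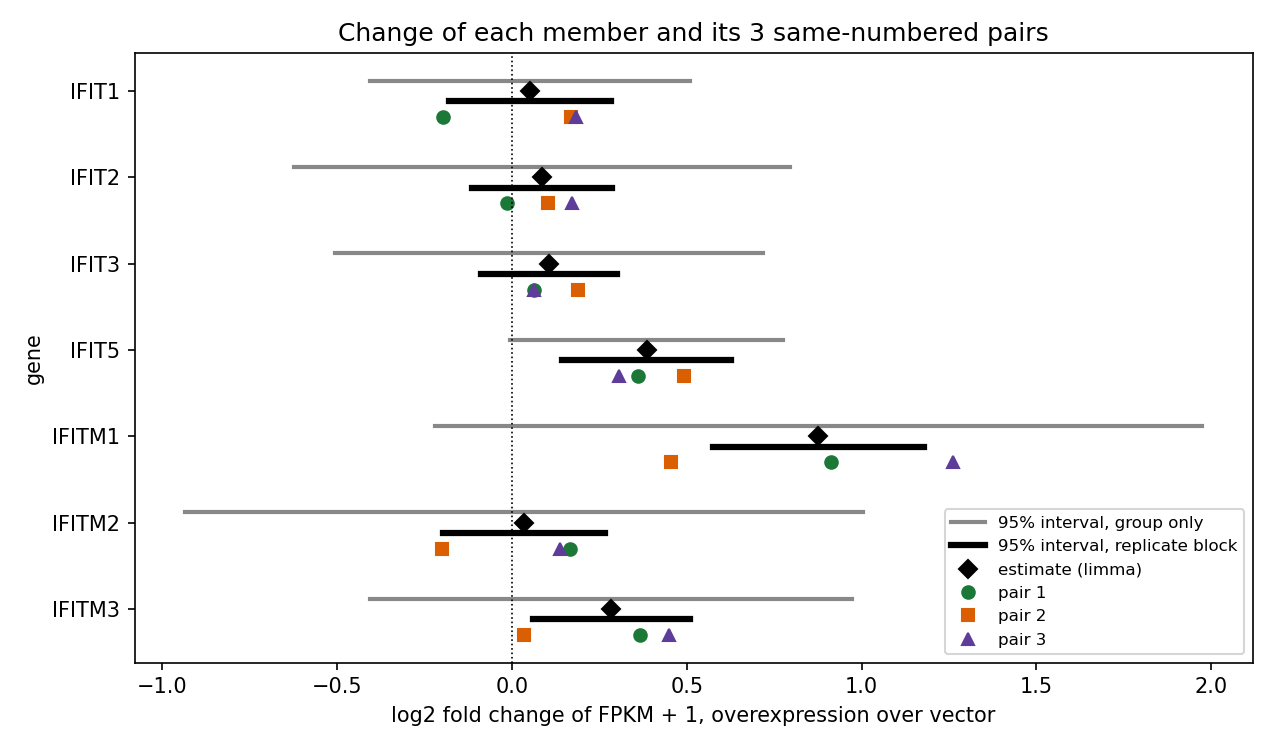
Log2 fold change of FPKM + 1, overexpression over vector (x axis), for each member (y axis), as the limma estimate (diamond) with its 95% interval in the group-only fit (grey) and with the replicate block (black), above the 3 same-numbered pairs (colored symbols). IFITM1 stands at 0.88 and IFIT5 at 0.39, and the group-only intervals of all 7 members include 0.

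Ratios between members within a library set the genes beside each other without regard to library scale, and 8 of them were compared with earlier results of these data known. The ratio of IFITM1 to IFITM2 was 4.49, 5.03 and 6.02 in overexpression libraries 1, 2 and 3, against 2.67, 3.19 and 2.75 in vector libraries 1, 2 and 3. The groups do not overlap in this ratio, including the libraries numbered 2, whose levels of both genes are the highest of their groups. An exact permutation test gave p = 0.1 (2-sided, adjusted p = 0.4 over the 8 ratios), which is the smallest p that 3 against 3 can give. The IFITM1 to IFITM3 ratio was 0.251, 0.341 and 0.277 in overexpression libraries, against 0.171, 0.255 and 0.156 in vector libraries, so it was higher in 3 of 3 pairs and the groups overlap (exact permutation p = 0.2, adjusted p = 0.4).

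Among the IFIT genes the ratio of IFIT5 to IFIT1 was 0.0916, 0.0822 and 0.0827 in overexpression libraries 1, 2 and 3, against 0.0586, 0.0619 and 0.0726 in vector libraries 1, 2 and 3. These groups do not overlap either (exact permutation p = 0.1, adjusted p = 0.4). The ratios among the 3 abundant IFIT genes overlapped between the groups. IFIT3 to IFIT2 stayed between 1.64 and 1.86 in overexpression and between 1.58 and 1.77 in vector libraries, while the levels of both genes varied by over 1.5 times among those libraries. The IFIT2 to IFIT1 ratio was 1.07 ± 0.133 in overexpression and 1.06 ± 0.220 in vector libraries (SD, n = 3 each).

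**Figure D4:**
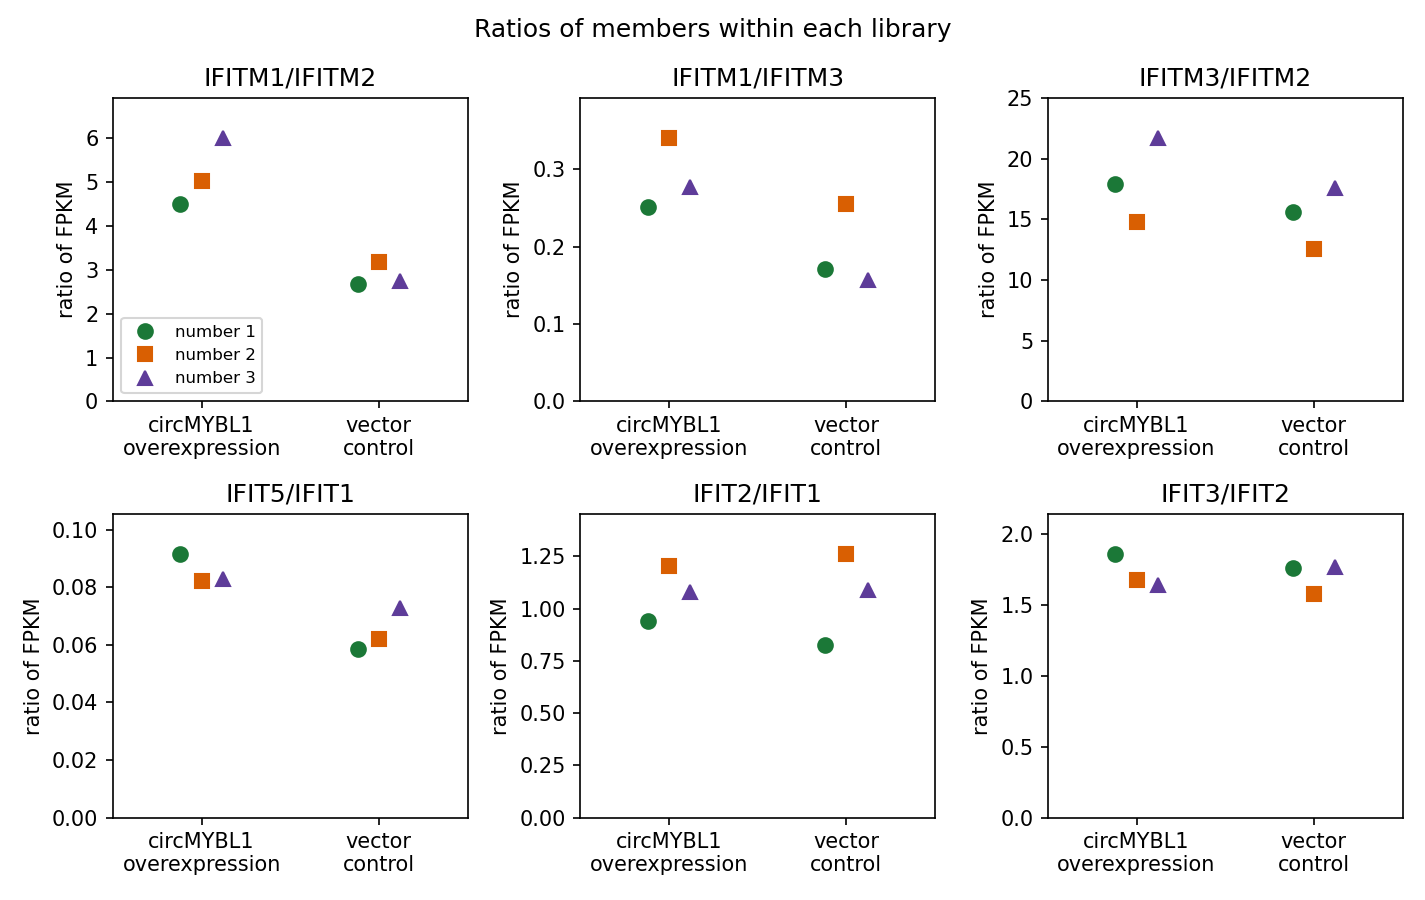
Ratios of FPKM between members within each library (y axis, linear from 0), for the overexpression libraries (left) and vector libraries (right), with symbols by replicate number. IFITM1/IFITM2 and IFIT5/IFIT1 are higher in all 3 overexpression libraries than in any vector library, and the other 4 ratios overlap.

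Per length, the order of levels was the same in both groups. IFITM3 came first, then IFITM1, IFIT3, IFIT2, IFIT1, IFITM2 and IFIT5. IFITM3 ranked 64 among the 12064 tested genes by mean FPKM, IFITM1 ranked 303, IFIT3 428 and IFIT5 8510. In both groups the ranges of IFITM3 over IFITM1 and of IFITM2 over IFIT5 did not overlap, while each of the other neighbours in the order overlapped. IFITM1 exceeded IFIT3 in 3 of 3 overexpression libraries and in 1 of 3 vector libraries, the one numbered 2. The summed level of the 3 IFITM genes was 729.6, 1203 and 853.5 FPKM in overexpression libraries 1, 2 and 3, against 534 (vector 1), 1112 (vector 2) and 573 FPKM (vector 3). That of the 4 IFIT genes was 208, 356 and 247 FPKM in overexpression libraries 1, 2 and 3, against 212, 317 and 226 FPKM in vector libraries 1, 2 and 3.

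Most members differed by replicate number. The libraries numbered 2 of both groups were above the other 4 libraries for 6 of 7 members, all but IFIT5, as for 35.9% of all genes tested. In the limma F-test of replicate number 6 of 7 members were called at an adjusted p under 0.05, where 46.5% of all genes were. IFITM2 had the largest F (48.6, adjusted p = 0.000195), followed by IFITM1 (35.1, adjusted p = 0.000465) and IFIT2 (32.4, adjusted p = 0.000586), and IFIT5 was not called (2.84, adjusted p = 0.165). Library 2 was above the mean of libraries 1 and 3 by 1.83 times in overexpression and 2.87 times in vector for IFITM1, and by 1.90 times in overexpression and 2.44 times in vector for IFITM2. For IFIT1 the values were smaller, 1.40 times in overexpression and 1.24 times in vector. The call of IFIT1 (adjusted p = 0.0385) ended under median-ratio scaling (adjusted p = 0.0822) and without a variance trend (adjusted p = 0.0682), and without a filter on low values no gene was called by limma (7116 had an unadjusted p under 0.05). What the number stands for is not given in the labels.

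The direction of the group-only fold change turned for 4 of 7 members when a single library was left out. Without overexpression library 2, IFIT1, IFIT2, IFIT3 and IFITM2 had log2 fold changes of -0.11, -0.16, -0.12 and -0.27. IFIT2 and IFIT3 also turned without vector library 1 (-0.08 and -0.04), IFIT1 without vector library 3 (-0.05), and IFITM2 without vector library 1 or 3 (-0.16 and -0.18). IFIT5, IFITM1 and IFITM3 stayed higher in overexpression whichever library was left out, at 0.27 to 0.45, 0.58 to 1.38 and 0.11 to 0.58. Leaving out 1 library keeps its same-numbered partner in the fit. With the block and both libraries of a number left out, the value stayed at 0.04 to 0.14 for IFIT2 and 0.06 to 0.13 for IFIT3. In those fits it was -0.01 to 0.18 for IFIT1 and -0.03 to 0.15 for IFITM2, so these 2 still turned.

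**Figure D5:**
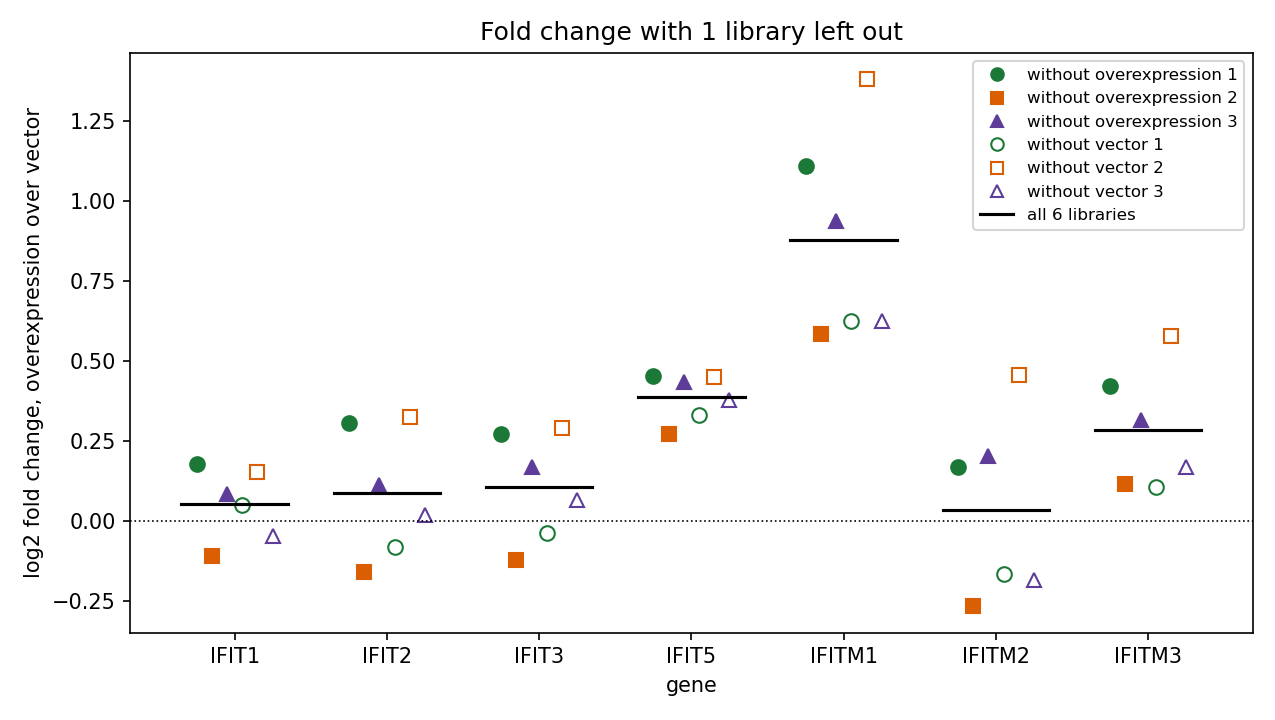
Log2 fold change, overexpression over vector (y axis), of each member (x axis) with 1 library left out (filled symbols for overexpression, open for vector libraries, by number) and with all 6 (black line), in the group-only fit. IFIT1, IFIT2, IFIT3 and IFITM2 fall on both sides of 0, while IFIT5, IFITM1 and IFITM3 stay above it.

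Of the genes that carry the interferon signal to these promoters, 15 of 21 listed were tested, 10 higher and 5 lower on average, with a median log2 fold change of 0.03 as over all genes. The group-only fit called 0 of them, and the blocked fit called 2 as higher, where 0.0912% of all genes were. Both were higher in overexpression. IRF9, the DNA-binding subunit that recognizes the ISRE, read 3.97, 7.20 and 4.32 FPKM in overexpression libraries 1, 2 and 3, against 1.32, 2.13 and 1.47 FPKM in vector libraries 1, 2 and 3 (log2 fold change 1.20, limma with the replicate block, adjusted p = 0.00569). IRF7, which amplifies interferon production, read 16.7, 13.0 and 16.0 FPKM in overexpression libraries 1, 2 and 3, against 8.12, 6.44 and 6.64 FPKM in vector libraries 1, 2 and 3 (1.01, adjusted p = 0.00569). Both calls ended once the blocked fit used GC- and length-corrected values (limma, adjusted p = 0.0816 for IRF9 and 0.171 for IRF7) or dropped the filter on low values (0.831 for each). The log2 fold changes were then 1.10 for IRF9 and 0.84 for IRF7 on corrected values, and without the filter they stayed at 1.20 and 1.01. Exons of IRF9 overlap those of AL136295.5, so its value is uncertain. STAT2, a partner of IRF9, was not called and had a log2 fold change of 0.14. USP18, which dampens signalling at the interferon receptor, had 0.47 (8.95 ± 1.10 FPKM in overexpression and 6.13 ± 0.195 FPKM in vector libraries; SD, n = 3 each), and IRF2 0.01.

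Of the interferon genes in the list IFNE, an epithelial type I interferon, alone passed the filter. It read 2.02, 1.87 and 1.76 FPKM in overexpression libraries 1, 2 and 3, against 1.86, 1.39 and 2.42 FPKM in vector libraries 1, 2 and 3, a log2 fold change of 0.01. IFNL1 stayed under the filter, at 0.599, 0.188 and 0.165 FPKM in overexpression libraries 1, 2 and 3, against 0, 0.483 and 0.208 FPKM in vector libraries 1, 2 and 3. IFNL3 read 0.197 FPKM in overexpression library 1 and 0 in the other libraries, IFNK 0.0419 FPKM in vector library 3 and 0 in the other libraries, IFNB1 at most 0.0345 FPKM in any library, and IFNL2 was listed at 0 in every library. The receptor chains IFNAR1 and IFNAR2 had log2 fold changes of -0.04 and 0.03.

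Genes that act on the 5′ ends read by IFIT proteins, or that work beside them, were not called in either fit. Of 12 tested, 7 were higher and 5 lower, with a median log2 fold change of 0.02. RAMAC, the activator of the cap methyltransferase, had 0.30, STING1, the adaptor for cytosolic DNA sensing, 0.27, and DUSP11, which removes 5′ triphosphates from RNA, 0.02. CMTR1, which methylates the first nucleotide and so marks RNA as the cell's own, read 14.4 ± 2.10 FPKM in overexpression and 12.4 ± 2.48 FPKM in vector libraries (SD, n = 3 each). Its log2 fold change was 0.21, positive in 3 of 3 pairs, as for 16.5% of all genes. CMTR2 of the same list went the other way, at -0.21. Partners and modifiers of IFITM proteins were likewise not called, with 4 of 11 higher, 7 lower and a median of -0.04. NEDD4, the ubiquitin ligase of IFITM3, had -0.21. ATP6V0B, a subunit of the vacuolar proton pump, had 0.18, the demethylase KDM1A -0.14 and the protease ZMPSTE24, which acts with IFITM proteins, -0.03.

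Neighbouring genes and the remaining family genes set the members in their loci. Of the protein-coding genes within 200 kb of the IFITM genes 11 were tested, and none was called in either fit. On average 11 of 11 were higher, as were 58.1% of all genes, with a median log2 fold change of 0.16. In 3 of 3 pairs 2 of 11 were higher, as were 16.5% of all genes. Every one was higher in pair 1, while in pair 3 all but SIGIRR and PGGHG were lower. The highest log2 fold changes were those of SIGIRR and PGGHG, at 0.39 each, below the 0.88 of IFITM1 and above the 0.28 of IFITM3. The others were PKP3 (0.31), RNH1 (0.21), PTDSS2 (0.19), B4GALNT4 (0.16), RIC8A (0.10), BET1L (0.10), PSMD13 (0.07), ANO9 (0.05) and SIRT3 (0.02). At the IFIT locus LIPA (-0.03) and PANK1 (0.12) were tested, and CH25H, an interferon-induced hydroxylase, read at most 0.0933 FPKM. The family genes outside the 7 were low: IFIT1B read 0.0284 to 0.0532 FPKM in overexpression and 0 to 0.00409 FPKM in vector libraries, IFITM5, a bone-specific relative, 0.0465 to 0.334 FPKM in overexpression and 0 to 0.106 FPKM in vector libraries, and IFITM10 0.108 to 0.427 FPKM in overexpression and 0.106 to 0.550 FPKM in vector libraries. None passed the filter, so these were not tested.

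Other genes followed the mean pattern of each family over the 6 libraries, though the members of a family did not all move alike. Between IFIT members Pearson's r of log2 levels ran from 0.60 (IFIT1 with IFIT5) to 0.988 (IFIT2 with IFIT3). Between IFITM members it ran from 0.80 (IFITM1 with IFITM2) to 0.965 (IFITM1 with IFITM3). Among 10236 other genes with a mean of at least 2 FPKM, Pearson's r of log2 levels with the mean of the IFIT members was highest for PLEKHA8 (0.997), KLHL36, PTPDC1, SLC25A12 and BTN2A2 (0.991). With the mean of the IFITM members it was highest for LIMD1 (0.997), BCL7A, SMAD3, MTIF3 and MTARC2 (0.990). An r over 0.9 was reached by 857 genes for the IFIT mean and by 733 for the IFITM mean, and these values describe 6 libraries in which those numbered 2 stand apart.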

How the data were processed

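Gene expression was measured by RNA-seq in 3 circMYBL1 overexpression and 3 vector libraries of SACC-83 cells, grouped by the sample titles. RNA was taken with TRIzol, mRNA purified, and libraries built with a NEBNext Ultra kit, per the labels' protocols. The submitters' processing notes name HISAT2 and GRCh38. No source used here gives the counter, the annotation, strand use or tool versions. The values are FPKM computed and deposited by the authors, which divide by gene length and library total, so abundant genes can move the rest.

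The 12064 genes that reached 1 FPKM in 3 or more libraries were fitted as log2(FPKM + 1) with limma 3.58.1 in R 4.3.3 (trend, 2-sided, Benjamini-Hochberg adjustment over all genes, threshold 0.05), with group as the only term. The fits were also run on values simulated from these libraries with known changes added. The only condition set was a slope of estimated on added change within 0.1 of 1. That run does not judge power or false calls in these data. With group means taken out, the deviations of libraries with the same number correlated across genes at 0.725, 0.881 and 0.529, all above the limit of 0.1, so the numbers were taken to pair the libraries, from these correlations and not from the labels, and a replicate block was fitted as well. Of the differently numbered pairs, overexpression 1 with vector 3 (0.412) and overexpression 3 with vector 1 (0.424) also passed that limit. Positions, transcript length and GC content came from GENCODE release 29, and promoter windows from RefSeq. Alternatives were pseudocounts of 0.1 and 0.5, no filter, a mean of at least 5 FPKM, TPM, quantile and median-ratio scaling, no trend, the block, GC and length correction, and leaving out libraries. The members and lists were chosen with earlier results of these data known. All 7 members are named, and of each list the 3 tested genes with the largest absolute fold change, the smallest and any called. STAT2, IFNE, IFNAR1, IFNAR2 and CMTR2 were added for their roles after their values were seen. Neighbours within 200 kb were taken from the annotation.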

Additional observations from a re-analysis of the deposited data

How the results depend on the processing

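Of the 7 members none passed an adjusted p of 0.05 under any alternative, except IFITM1 in the fit with the replicate block and without replicate 2 of both groups (limma, adjusted p = 1.27e-12, unreliable because the test leans on variance pooled over genes). In the group-only fit, limma called 0 genes (65 at an unadjusted p under 0.05), 4 without a filter on low values, 12 with the replicate block and 2 with the block and GC and length correction. The block without a filter, added after the data were seen, called 0 (limma, smallest adjusted p = 0.562, 1293 genes at an unadjusted p under 0.05). Leaving out 1 library, or both libraries of a number with the block, gave 0 to 148 genes, the blocked fits 14, 148 and 22 without number 1, 2 and 3. Calls for replicate number were 0 without a filter, against 5605 with it. The replicate block changed no call of a member. Over the group-only fits that leave out 1 library the log2 fold change was -0.11 to 0.18 for IFIT1, -0.16 to 0.32 for IFIT2, -0.12 to 0.29 for IFIT3, 0.27 to 0.45 for IFIT5, 0.58 to 1.38 for IFITM1, -0.27 to 0.45 for IFITM2 and 0.11 to 0.58 for IFITM3. IFITM2 turned to -0.024 under quantile scaling, to -0.065 after GC and length correction with and without the block, and with the block to -0.031 without number 1 and -0.016 without number 3. With the block IFIT1 turned to -0.0073 without number 2 and -0.014 without number 3. The cause of these changes was not tested. IFIT5 could not be tested with the mean FPKM filter of 5. Depth is unknown, so counting error is not included in any interval.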
